A study of Homo sapiens with 4 samples.

Results

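A set of 10 protein-coding splicing regulators was followed in K562 cells, a human erythroleukaemia line, after knockdown of DROSHA, the nuclear ribonuclease that crops primary microRNA transcripts. They are the 3 LUC7-like genes LUC7L, LUC7L2 and LUC7L3, the 4 CDC-like kinase genes CLK1 to CLK4, and the speckle protein genes PNISR, SON and SRRM2. These 10 of 58037 listed genes (14231 of them tested by the authors) were taken by symbol and biotype, and the set was selected on the fold changes and adjusted p-values of the same comparison, so its values are a description. LUC7L3 and PNISR were the members past the authors' threshold, and both were higher in the knockdown cells. The knockdown cells carried a CRISPR lentivirus against DROSHA and the control cells a non-specific one. Both were selected with puromycin at 2.5 ng/μl, at passages 25 to 30, and total RNA was sequenced from 2 libraries of each. Whether the cells were clones or pools is not given in the sources used here.

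LUC7-like proteins are relatives of a yeast component of the U1 snRNP, the particle that pairs with the 5′ splice site at the start of an intron, and they influence which sites it selects. CLK kinases phosphorylate SR proteins, splicing factors rich in arginine-serine repeats, and so release them from nuclear speckles, the bodies that SON and SRRM2 scaffold. PNISR is an arginine-serine-rich protein that binds pinin. Transcripts of several such genes are known to stay in the nucleus with an intron still in place, from which they can be spliced later.

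The gene catalogue lists transcripts that hold an intron, whether or not they stay in the nucleus. GENCODE release 29, on the files' build hg38, lists a transcript of the retained-intron class for 8 of the 10 genes, the exceptions being CLK2 and PNISR, and for 57.1% of 11566 tested protein-coding genes. An intron of a coding transcript lies whole inside an exon of another transcript, of any class, in 8 of the 10 genes. The exceptions are LUC7L2 and SON, and the share over the tested protein-coding genes is 41.5%. In each of the 4 CLK genes intron 4 of 12 is such an intron. Its 5′ splice sites are shown because the kinases share the place of this intron, and 1 site each of LUC7L3 and PNISR because these genes passed the threshold. The introns of LUC7L3 and PNISR were picked after their sites were seen, from several in each gene, so they stand as examples and not for comparison with the kinases. The LUC7L3 intron shown is held by a protein-coding transcript, the principal one of the gene. The PNISR intron and intron 4 of CLK2 are held by processed transcripts, and intron 4 of the other kinases by retained-intron transcripts. Each run holds 12 bases of exon and 18 of intron, read from the GENCODE transcript that keeps the intron, with the 9-base splice site (3 exon and 6 intron bases) in capitals:
CLK1 intron 4, chr2:200860107-200860136, minus strand: taagtgcaaGATGTATAGaatatttttcaa
CLK2 intron 4, chr1:155268690-155268719, minus strand: tacaagagcGATGTACAAgccaaatcgtaa
CLK3 intron 4, chr15:74622205-74622234, plus strand: tccaagagcGATGTACAGccacctttcgta
CLK4 intron 4, chr5:178617326-178617355, minus strand: taagagcaaGATGTATAGaatatttttcaa
LUC7L3 intron 10, chr17:50750683-50750712, plus strand: gatcagacaGAGGTAAGTgtattgtttctc
PNISR intron 11, chr6:99403811-99403840, minus strand: tcactggacTCGGTAAGTgttttccatatt

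CLK1 and CLK4 share 29 of these 30 bases, CLK2 and CLK3 share 19, and the other pairs share 14 or 15. Each of the 4 kinase sites matches the U1 consensus CAGGTAAGT, compared on the transcript strand, at 4 of 9 positions. That is the lowest in each kinase among the sites of this kind that were read, the others matching at 5 to 9. CLK3 has 4 such introns, and not every one had its site read. The median is 6 of 9 over the 38 such introns of these genes whose site was read, some of which share a site. It is also 6 of 9 over 12537 such introns of the tested protein-coding genes. Of those 12537, 11.8% match at 4 positions or fewer and 0.439% match in full. The LUC7L3 site shown matches at 8 positions, the highest in a gene whose sites run from 5 to 8. The PNISR site shown matches at 7, again the highest, in a gene whose sites match at 6 or 7. These are catalogue sequences. The deposited values are sums per gene, so reads from a kept intron and from an exon cannot be told apart in them.

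The deposited table holds no column for a single library, only a gene's mean over all 4 (in normalised reads), the fold change and its p-value after adjustment. Whole reads per library could nevertheless be solved for 13546 of the 14231 tested genes, because each mean is a sum of whole reads times the value of 1 read in each library. All values per library below are solved in this way. The solved reads sum to 22627634 and 17500887 in the knockdown libraries and 26437560 and 19948204 in the control libraries, called the deeper and the shallower library of each group. The libraries were not tied to replicate numbers, and whether they came from separate cultures is not stated, so the p-values speak only of the spread among these 4 libraries, which may be technical. The header states no direction; knockdown over control was taken from the sign of DROSHA, and every direction given here rests on it. DROSHA had 2734 and 2770 normalised reads in the knockdown libraries, against 6107 and 6077 in the control libraries. The authors' deposited table put its log2 fold change at -1.15 (adjusted p = 8.11e-14). All 13 erythroid markers of K562 cells were tested, with means of 2901 to 156201 and log2 fold changes of -0.23 to 0.25 in the authors' deposited table. The T cell, B cell and fibroblast markers had means of at most 122, with MS4A1 and LUM at 0, while the epithelial markers reached 7144.

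LUC7L3 showed the largest difference of the 10 genes. It had 5332 and 5573 normalised reads in the knockdown libraries (5826 and 4533 whole reads), against 3012 and 3273 in the control libraries (3706 and 3004 whole reads). The groups did not overlap, and the lower knockdown library stood 1.63 times above the higher control library. The authors' deposited table put the log2 fold change at 0.80 and the adjusted p at 1.02e-05. That p implies a standard error of at most 0.139 and a 95% interval from 0.52 to 1.07. Of all tested genes 98.9% had a lower fold change, which describes its place and tests nothing. RP11-294J22.7, a same-strand gene that overlaps LUC7L3 by 2151 bases, held 81 and 47 whole reads in the knockdown libraries and 55 and 39 in the control libraries. LUC7L3 (ENSG00000108848.15) lies on chromosome 17 from 50719544 to 50756213, plus strand. In bulk RNA, more cells with a transcript and more of it per cell cannot be told apart.

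PNISR followed it. It had 6535 and 6577 normalised reads in the knockdown libraries, against 4169 and 4361 in the control libraries. Within each group the libraries were close, and the lower knockdown library stood 1.5 times above the higher control library. The authors' deposited table put the log2 fold change at 0.62 and the adjusted p at 0.0020, which imply a standard error of 0.134 and an interval from 0.36 to 0.88. RP11-98I9.4, an antisense gene that overlaps PNISR by 410 bases, had 240 and 245 normalised reads in the knockdown libraries and 270 and 329 in the control libraries. The authors' deposited table put it at -0.30 (adjusted p = 0.882), so it did not pass. PNISR (ENSG00000132424.14) lies on chromosome 6 from 99398051 to 99425331, minus strand.

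Thus 2 of the 10 genes passed an adjusted p under 0.05 as higher, in a table where 47 of 14231 tested genes (0.330%) did so, and 0 passed as lower, where 3 (0.0211%) did so. Since the members were picked with these values known, nothing is read from that count. A limma fit to the solved reads of all 13546 solved genes, of which 0.236% were called higher, gave LUC7L3 a log2 fold change of 0.80 (standard error 0.124, adjusted p = 0.0070) and PNISR one of 0.62 (standard error 0.121, adjusted p = 0.041). Leaving out a library leaves its group with a lone library, and limma then takes the spread within groups from the other group. Whether the calls depend on a single library therefore cannot be judged from such fits. With any library left out in turn, the log2 fold changes stayed between 0.74 and 0.86 for LUC7L3 and between 0.59 and 0.65 for PNISR.

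**Figure D1:**
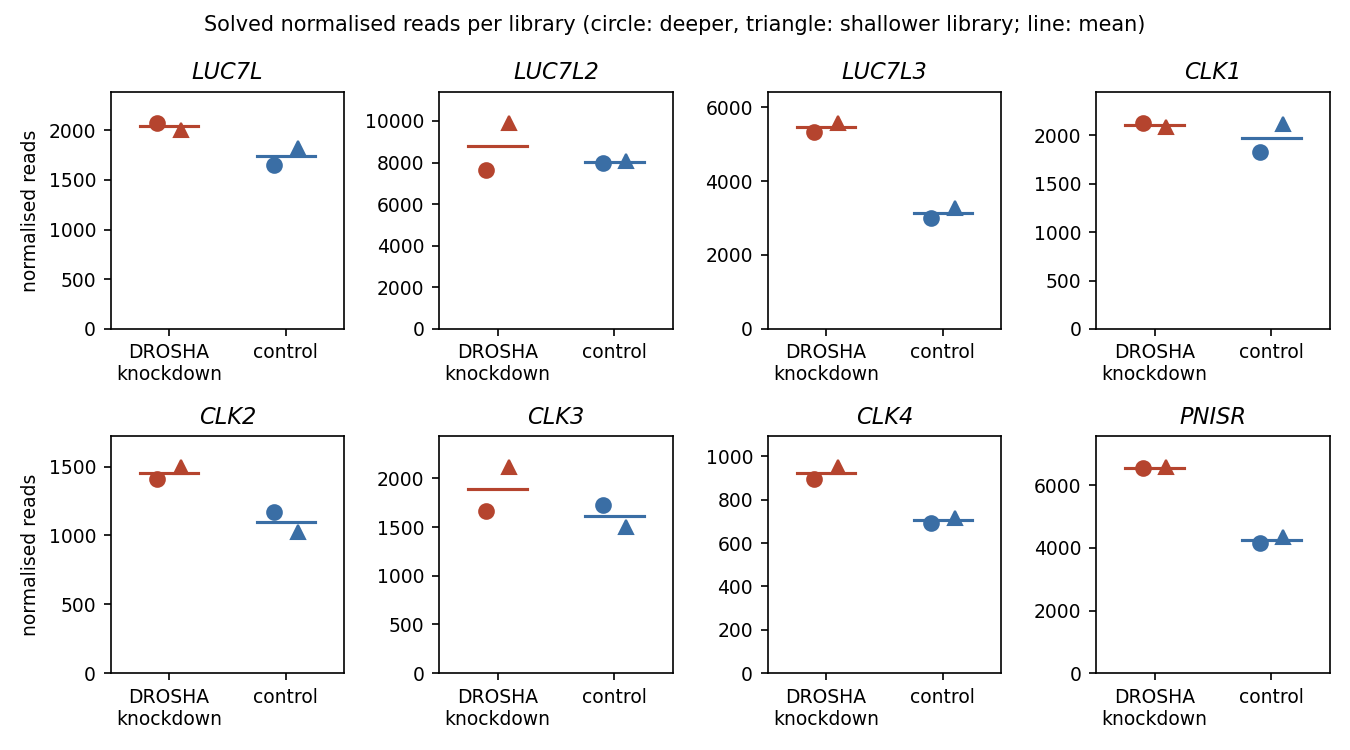
Solved normalised reads (vertical axes, from 0) of 8 of the 10 genes in the DROSHA knockdown libraries, left, and the control libraries, right; circles are the deeper and triangles the shallower library of each group, and lines are the means of 2 libraries. LUC7L3 and PNISR show the widest gaps between groups, while in LUC7L2, CLK1 and CLK3 the groups overlap.

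The other LUC7-like genes did not pass the test. LUC7L had 2073 and 2005 normalised reads in the knockdown libraries, against 1652 and 1823 in the control libraries. The groups did not overlap, with the knockdown above, as in 19.0% of the solved tested genes. The authors' deposited table put its log2 fold change at 0.23 (implied interval -0.065 to 0.53, adjusted p = 0.823).

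LUC7L2, the most abundant of the family, had 7659 and 9908 normalised reads in the knockdown libraries, against 7997 and 8098 in the control libraries. The deeper knockdown library lay below both control libraries and the shallower one above them. The authors' deposited table gave 0.13 on the log2 scale (implied interval -0.18 to 0.43, adjusted p = 0.943). The row C7orf55-LUC7L2, a read-through gene that spans the same exons, showed the same order of libraries, with 5773 and 8017 normalised reads in the knockdown libraries and 6465 and 6664 in the control libraries. The principal LUC7L2 transcript shares 51.2% of its 50-base stretches with that row, so the value of LUC7L2 alone is uncertain. The principal transcripts of LUC7L and LUC7L3 share 0% of theirs with any other gene. LUC7L (ENSG00000007392.16) lies on chromosome 16 from 188969 to 229463, minus strand, and LUC7L2 (ENSG00000146963.17) on chromosome 7 from 139340359 to 139423457, plus strand.

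Of the CLK kinases 0 of 4 passed, beside 0.330% higher and 0.0211% lower of all tested genes. All 4 had a log2 fold change above 0, with a median of 0.31. Over all tested genes 45.1% lay above 0, with a median of -0.027. CLK2 had 1408 and 1496 normalised reads in the knockdown libraries, against 1167 and 1025 in the control libraries. CLK4 had 894 and 950 in the knockdown libraries, against 694 and 717 in the control libraries. In both genes every knockdown library lay above every control library, as in 19.0% of the solved tested genes. In the authors' deposited table CLK2 stood at a log2 fold change of 0.40 (implied interval 0.088 to 0.72, adjusted p = 0.479) and CLK4 at 0.39 (implied interval 0.053 to 0.72, adjusted p = 0.574). Both intervals lie above 0, but neither gene passed once the p-value was adjusted over all tested genes.

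CLK1 and CLK3 overlapped between groups. CLK1 had 2130 and 2084 normalised reads in the knockdown libraries, against 1830 and 2123 in the control libraries, where the shallower control library lay between the knockdown libraries. CLK3 had 1665 and 2116 in the knockdown libraries, against 1730 and 1497 in the control libraries. In the authors' deposited table CLK1 stood at 0.093 on the log2 scale (implied interval -0.22 to 0.40, adjusted p = 0.965) and CLK3 at 0.23 (implied interval -0.11 to 0.56, adjusted p = 0.873). CLK1 and CLK4, whose introns 4 begin almost alike, share 0% of the 50-base stretches of their principal transcripts with each other or any other gene. CLK2 shares 6.84% with the pseudogene CLK2P1, which held 1 and 3 whole reads in the knockdown libraries and 5 and 4 in the control libraries. EDC3, on the opposite strand, overlaps CLK3 by 14857 bases. The authors' deposited table gave EDC3 a mean of 1006 and a log2 fold change of 0.47 (adjusted p = 0.523). Whether counting used strand is not stated in the sources, so reads of CLK3 and EDC3 may be mixed. CLK1 (ENSG00000013441.15) lies on chromosome 2 from 200853009 to 200864744 and CLK2 (ENSG00000176444.18) on chromosome 1 from 155262868 to 155278491, both on the minus strand. CLK3 (ENSG00000179335.18) lies on chromosome 15 from 74598500 to 74645414, plus strand, and CLK4 (ENSG00000113240.12) on chromosome 5 from 178602664 to 178630615, minus strand.

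SON and SRRM2, the scaffold proteins of the speckle, showed the smallest fold changes. Their means are too high for a single solution per library, so only levels per group, computed from the deposited mean and fold change, can be given. For SON these were 19056 normalised reads in the knockdown group and 18193 in the control group. The authors' deposited table gave SON 0.067 on the log2 scale (implied interval -0.20 to 0.34, adjusted p = 0.971). For SRRM2 they were 15493 in the knockdown group and 15422 in the control group. The authors' deposited table gave SRRM2 0.0067 (adjusted p = 0.999). The implied p of its Wald test, 0.999, is too high to yield a usable interval. On the opposite strand, DONSON overlaps SON by 17940 bases and GART overlaps it by 874, while TCEB2 overlaps SRRM2 by 1125 bases. As for CLK3, the strand setting of the counting is not stated, so reads of these genes may be mixed. On the same strand, the microRNA gene MIR6501 overlaps SON by 67 bases and has no value in the authors' deposited table. The implied interval of PNISR lies above the whole interval of SON, although the difference between genes was not tested. SON (ENSG00000159140.18) lies on chromosome 21 from 33542618 to 33577481 and SRRM2 (ENSG00000167978.16) on chromosome 16 from 2752329 to 2772538, both on the plus strand.

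**Figure D2:**
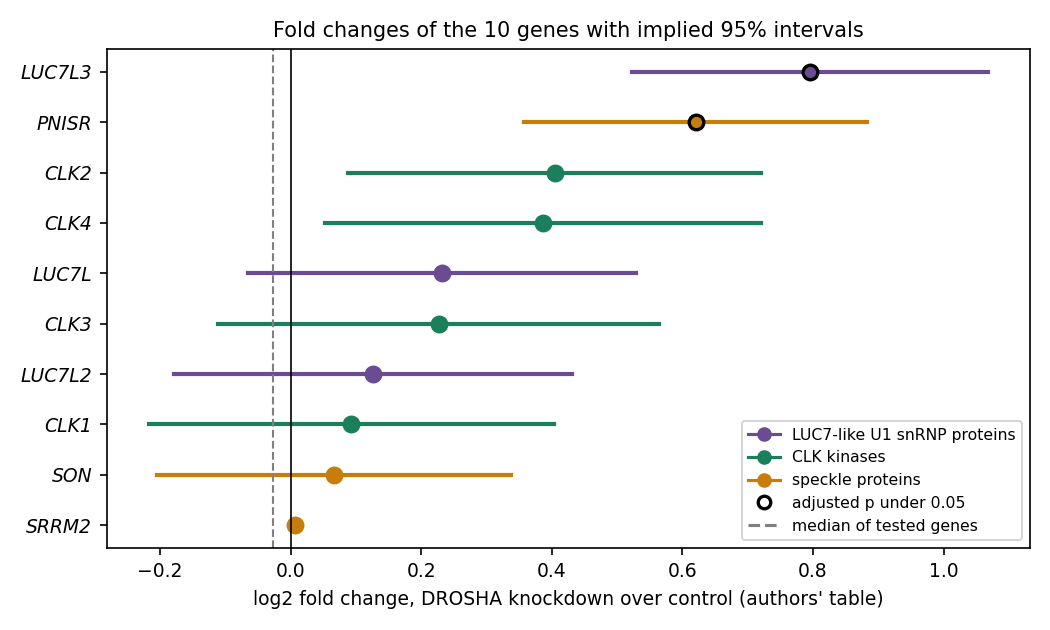
Log2 fold change, knockdown over control, of the 10 genes in the authors' table (horizontal axis) with implied 95% intervals as bars, coloured by family; SRRM2 has no usable interval. Black rings mark LUC7L3 and PNISR, at an adjusted p under 0.05, and the dashed line is the median of the tested genes at -0.027.

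Taken by level, SON, LUC7L2 and SRRM2 led with 1414, 1332 and 1165 mean normalised reads per kilobase of annotated exon. LUC7L3 and PNISR stood in the middle, at 527 and 498 per kilobase. CLK1, CLK2 and LUC7L had 395, 347 and 306 per kilobase, and CLK4 and CLK3 had 103 and 85.7 per kilobase. This measure divides by every annotated exon base of a gene, over all its listed transcripts. For CLK3 that is 20443 bases, against 1846 in its principal transcript, and for CLK4 7924 against 2568. The order therefore holds for this measure only, and the low place of CLK3 rests on its long annotation. By this measure the genes past the threshold were neither the most nor the least abundant. Nor were they the longest, since the principal transcript has 7040 bases in LUC7L3, intron 10 included, and 5189 in PNISR, against 8813 in SON and 9353 in SRRM2.

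All 10 genes had a log2 fold change above 0, from 0.0067 to 0.80, with a median of 0.23. Over all tested genes 45.1% lay above 0 and the median was -0.027. Above 0 also lay 8 of 8 detained-intron transcripts, 21 of 26 other speckle proteins and 11 of 13 SR and Tra2 proteins listed below. The counts were 10 of 15 for hnRNP genes, 5 of 8 for U1 snRNP factors, 5 of 12 for other kinases and 2 of 6 for phosphatases. Members and lists were chosen with results known, so these counts are a description. Of the 8 members solved per library, 5 had both knockdown libraries above both control libraries, as did 19.0% of the 13546 solved tested genes. These are LUC7L3, PNISR, CLK2, CLK4 and LUC7L. The plot of fold change against mean places the 10 genes within the cloud of tested genes, with LUC7L3 and PNISR at its upper edge.

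**Figure D3:**
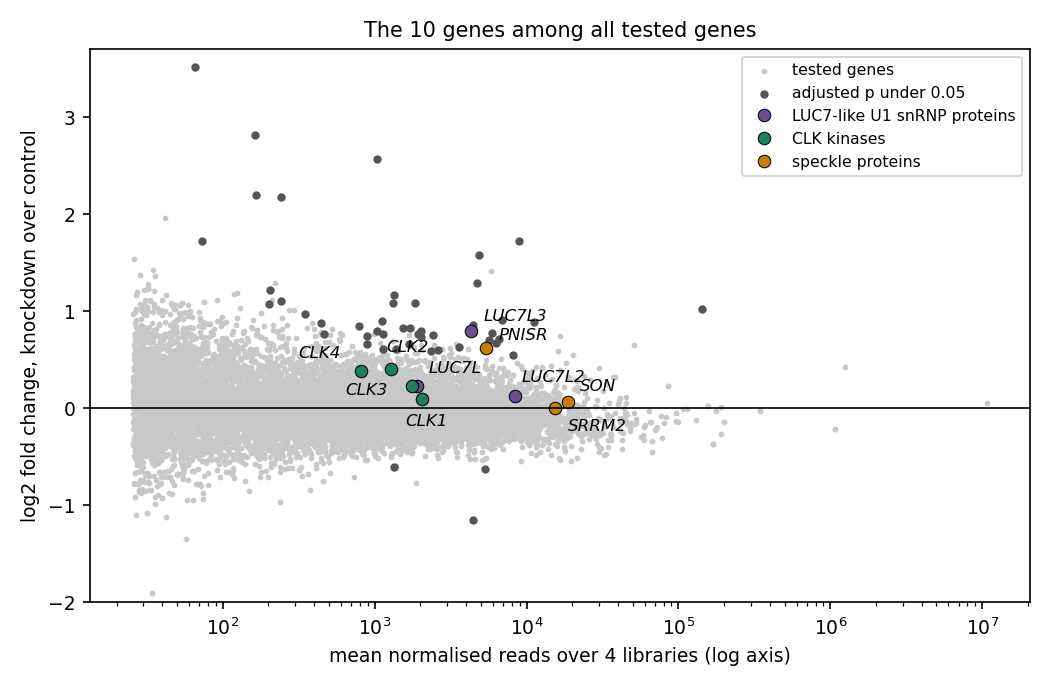
Log2 fold change, knockdown over control, against mean normalised reads (log axis) for the tested genes, with those at an adjusted p under 0.05 in dark grey and the 10 genes coloured by family. LUC7L3 at 0.80 and PNISR at 0.62 lie at the upper edge, and SRRM2 at 0.0067 and SON at 0.067 near 0.

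Other genes of the same machinery were taken from 7 lists of protein-coding genes, drawn up with earlier results of these data known. Of 88 tested list genes, 4 were higher, 0 were lower and the rest did not pass, beside 0.330% higher and 0.0211% lower of all tested genes. Since results were known when the lists were made, nothing about a list as a group is read from its count or median. Other RS-rich speckle proteins gave 2 of 26 as higher and 0 as lower, with a median log2 fold change of 0.29. NSRP1, a speckle protein that regulates splicing, had 1377 and 2332 normalised reads in the knockdown libraries, against 832 and 812 in the control libraries. The authors' deposited table put it at 1.17 on the log2 scale (adjusted p = 5.85e-05), and the gap between its knockdown libraries was wider than in LUC7L3 or PNISR. ZRANB2, an RS-rich zinc finger protein that binds splice site sequences, had 6911 and 8037 in the knockdown libraries, against 4346 and 4402 in the control libraries. In the authors' deposited table it stood at 0.77 (adjusted p = 4.79e-05).

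Among 8 other transcripts known for detained introns, 2 were higher and 0 lower, with a median of 0.33, beside -0.027 over all tested genes, of which 0.330% were higher. That list too was drawn up with results known, and the count is a description. TARDBP, which encodes the RNA-binding protein TDP-43, had 5088 and 6296 normalised reads in the knockdown libraries, against 3174 and 3100 in the control libraries. In the authors' deposited table its log2 fold change was 0.86 (adjusted p = 1.58e-05), and that of MAT2A, an enzyme that makes S-adenosylmethionine, was 0.89 (adjusted p = 5.33e-07).

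Lists of partners and substrates of the members gave no calls, beside 0.330% higher and 0.0211% lower of all tested genes. With so low a share, lists of this size could well hold no call, so nothing is read from these counts. Of 13 tested SR and Tra2 proteins, the substrates of the CLK kinases, 0 were higher and 0 lower, with a median of 0.10. SRSF11, which had the smallest adjusted p among them, held 9248 and 8911 normalised reads in the knockdown libraries, against 6805 and 7460 in the control libraries, and in the authors' deposited table stood at 0.35 (adjusted p = 0.447). Of 12 tested kinases of splicing factors outside the CLK family, 0 passed in either direction and the median was -0.052. PRPF4B, a spliceosomal kinase, had the smallest adjusted p, 0.129, at 0.47 on the log2 scale in the authors' deposited table. Of 8 U1 snRNP proteins and associated factors, 0 passed and the median was 0.046, and the authors' deposited table put PRPF40B at 0.33 (adjusted p = 0.878). Of 6 phosphatase genes 0 passed, with a median of -0.077, and the authors' deposited table put PPP1CA, a catalytic subunit of protein phosphatase 1, at -0.38 (adjusted p = 0.359). Of 15 hnRNP genes 0 passed, with a median of 0.095, and the authors' deposited table put HNRNPA2B1 at 0.55 (adjusted p = 0.400).

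The long non-coding RNAs of speckles and paraspeckles, MALAT1 and NEAT1, were both higher, as LUC7L3 and PNISR were. NEAT1, the scaffold of paraspeckles, had 10130 and 9127 normalised reads in the knockdown libraries, against 6484 and 6699 in the control libraries. In the authors' deposited table NEAT1 stood at 0.55 on the log2 scale (adjusted p = 0.020) and MALAT1, a speckle RNA, at 1.02 (adjusted p = 1.41e-11). Both RNAs stay in the nucleus. Whether the share of nuclear RNA differed between the libraries was not tested.

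**Figure D4:**
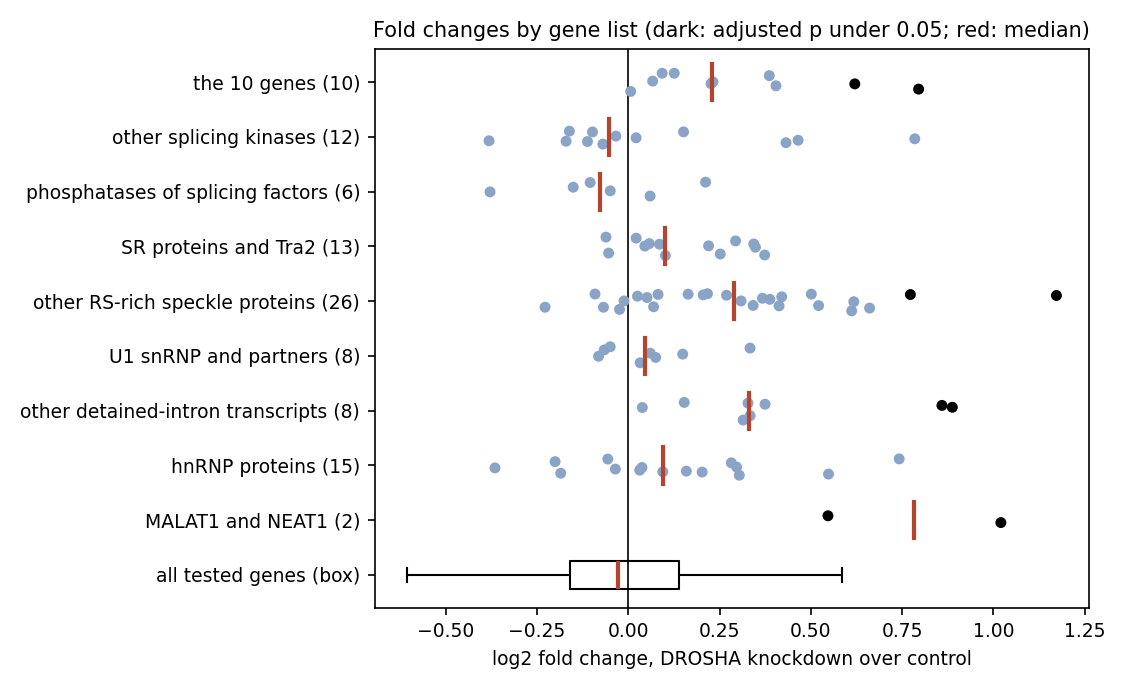
Log2 fold change, knockdown over control, of each tested gene (points) in the 10 genes and in 8 lists, with the number of genes in parentheses; dark points are at an adjusted p under 0.05, red lines are medians, and the box shows the quartiles of all tested genes with whiskers to 1.5 times the interquartile range. The medians run from -0.077 for the phosphatases to 0.33 for detained-intron transcripts and 0.78 for MALAT1 and NEAT1.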

How the data were processed

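Per the labels' protocols, total RNA went through a TruSeq Stranded Total RNA kit. Tools named in the submitters' processing notes are STAR 2.6.0a, Bowtie2 2.3.4.1 and DESeq2 1.24.0, with the build hg38. How genes were counted, with which strand setting and annotation, is not given in the sources used here. The 1 table deposited by the authors lists, per the file headers, each gene's mean signal in normalised reads, its log2 change and its adjusted p-value. A second log2 column has no stated assay or direction and was not used here. With 0 columns for single libraries, the count test planned for such columns was not run, and the authors' values were used at a threshold of 0.05.

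The members, lists and naming rule (members, DROSHA, overlapping genes, called list genes and the smallest adjusted p per list) were chosen with earlier results of these data known.

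The implied p undoes the Benjamini-Hochberg adjustment over 14231 genes. It is an upper limit where genes share a value, as all members but PNISR do. It gives the implied standard error and interval as a Wald test, and for those members the standard errors are upper limits too.

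The smallest means give the value of 1 read in each library. Whole reads were solved so that they return the mean to 15 significant digits and bracket the deposited fold change (not used for means under 25). Above a mean of 300, each library had to hold 35 to 65% of its group. Means up to 10000 were tried. Of 13618 tested genes tried, 13546 had 1 solution, 33 several and 39 none. In 1500 low genes all solutions were unique and all 1500 bracketed the fold change. The solver and the limma fit were tested on simulated data. Normalised reads are reads divided by size factors of 1.09 and 0.813 (knockdown) and 1.23 and 0.918 (control). Levels per group computed from mean and fold differed from solved ones by a median of 0.027%, in 10935 solved genes with a mean above 100. Solutions had to bracket the fold change, so this closeness was largely built in. It is no check on the levels of SON and SRRM2, which were not solved.

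limma 3.58.1 (R 4.3.3, trend) used log2(normalised reads + 1). Python 3.11.15, numpy 2.4.6 and pandas 2.3.3 did the rest. Annotation and splice sites came from GENCODE release 29.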

Additional observations from a re-analysis of the deposited data

How the results depend on the processing

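The limma fit to all 4 libraries was chosen after seeing the data. The 2 called genes, LUC7L3 and PNISR, became 1 with Bonferroni adjustment, where PNISR had an adjusted p of 0.053, and 0 with a minimum log2 size of 1. Re-centring, thresholds of 0.01 and 0.1, adjustment over protein-coding genes alone and limma on the solved reads gave 2. With 1 library left out, limma assumed that the lone library varies like the other group, so no call is read from those fits. The log2 fold changes there ran from 0.74 to 0.86 for LUC7L3 and from 0.59 to 0.65 for PNISR. The genes above 0 were 10 in the table, and 5 of 5 without genes overlapped on the same strand and 1 of 1 without any overlapped gene, by construction. With 1 library left out they were 7 to 8 of 8. In those fits LUC7L2 changed sign to -0.071 without the shallower knockdown library and CLK1 to -0.011 without the deeper control library. Neither gene passed in the authors' deposited table, and the cause of the change was not tested. The median of 0.23 became 0.067 for the speckle proteins alone and ran from 0.30 to 0.41 with 1 library left out, when SON and SRRM2 were not in the fit. At a tolerance 10 times wider 6 members rather than 8 had 1 solution, LUC7L2 and PNISR having several. No paired analysis was possible because the solved libraries carry no replicate number.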

Other observations

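Some list genes that did not pass, chosen here after their values were seen, differed more between the knockdown libraries than LUC7L3 and PNISR did. RSRP1, an arginine-serine-rich protein gene, had 4397 normalised reads in the deeper and 3248 in the shallower knockdown library, against 2554 and 2430 in the control libraries. CCNL2, a cyclin of speckles, had 5903 and 3999 in the knockdown libraries, against 3436 and 3045 in the control libraries. In both the deeper knockdown library was the higher, whereas in NSRP1 and in the kinase gene CDK11A it was the shallower, with CDK11A at 410 and 716 in the knockdown libraries, against 329 and 322 in the control libraries. In the authors' deposited table the log2 fold changes were 0.62 for RSRP1 (adjusted p = 0.066), 0.61 for CCNL2 (adjusted p = 0.138) and 0.78 for CDK11A (adjusted p = 0.204). CDK11A has a near-identical neighbour, CDK11B, so its count is uncertain.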
